A study of Homo sapiens with 11 samples.

Results

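Noncoding exon peaks are the sites at which RNA bound to ZFP36L2 was recovered from exons of transcripts that the authors' annotation treats as noncoding, leaving out the abundant nuclear RNAs NEAT1 and MALAT1. They were chosen by the region that the authors' deposited tables give each peak, without any measured value beyond the thresholds that every peak of those tables had passed, a log2 fold over input no smaller than 3 and a −log10 p no smaller than 3. There were 583 such peaks among 67083, with 130 and 131 in the MOLM13 immunoprecipitates and 156 and 166 in those of THP1. They bore 211 gene names, and overlapping or touching peaks joined into 250 regions of a median 83.5 bases.

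The study mapped ZFP36L2 binding by eCLIP, in which ultraviolet light crosslinks protein to RNA, the RNA is cut by RNase, the protein is immunoprecipitated and the fragments that stay attached are sequenced. ZFP36L2 was precipitated from 2 MOLM13 and 2 THP1 samples with an antibody against ZFP36L2, also known as TIS11D. The controls were 2 immunoprecipitates per line with nonspecific IgG, and size-matched inputs taken from the lysate before immunoprecipitation, 2 for MOLM13 and 1 for THP1. Both are established lines from human acute myeloid leukaemia, and the labels name no genetic change or treatment in either. The labels do not state that the duplicates are separate cultures, and their spread may be technical. Whether the single THP1 input served both THP1 immunoprecipitates is not stated.

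ZFP36L2 belongs to the TIS11 family of zinc finger proteins, which recognise AU-rich elements with a UAUUUAU core, mostly in the 3' UTRs of mRNAs, and recruit deadenylases that shorten the poly(A) tail. Many long noncoding RNAs are spliced and polyadenylated like mRNAs but carry no long reading frame. Some host small nucleolar RNAs in their introns, some run antisense to or diverge from protein-coding genes, and the same annotation class holds transcribed pseudogenes and noncoding splice forms of coding genes.

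No genome came with the files, so the sequence under a peak could be read only where it fell inside a RefSeq window around a gene start (GRCh38.p14, 250 bases before to 50 after). That held for 13 peaks of 6 genes. The 2 runs below are shown because they are the stretches in which the motif TATTTAT, the DNA form of the core, was found on the strand of the peak, and the capitals mark it. The PRC1 run is chr15:90966207-90966236 on the minus strand and the POLR2A run chr17:7484462-7484491 on the plus strand.
PRC1: tgaagcactatTATTTATtcttccgctgtc
POLR2A: acccggttactTATTTATtcgttacccttt
Of all 35116 full windows of 300 bases, 2.48% held the motif on the gene's strand and 2.70% on the opposite one. Over the stretch of 99 bases that the PRC1 peak of THP1 replicate 1 covers, 0.974% of windows held it at the same place and strand, and over the 119 bases of the POLR2A peak of MOLM13 replicate 1 the share was 1.38%. These matches describe the letters only. For the other 4 genes the letters were not found in the part of the peak that a window covered.

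PRC1, which bundles microtubules during cytokinesis, carries one of the strongest of these sites. At chr15:90966161-90966259 its log2 fold over input was 6.01 and 6.69 in duplicate MOLM13 libraries and 5.66 and 6.86 in duplicate THP1 libraries, and over IgG it was 5.29 and 6.34 in MOLM13 cells and 6.0 and 7.44 in THP1 cells. The lines overlapped, and the site stood clear of both controls in every immunoprecipitate. The tables label it a noncoding exon in replicate 1 of each line and a 3' UTR in replicate 2 of each line. POLR2A, the largest subunit of RNA polymerase II, was weaker, with 3.26 and 3.95 over input in MOLM13 at chr17:7484375-7484619. It had no peak in THP1 replicate 1 and 4.82 in THP1 replicate 2. Over IgG these peaks had 2.86 and 2.01 in MOLM13 and 3.23 in THP1 replicate 2. In MOLM13 replicate 2 the motif lay not in the peak of 3.95 but in the adjoining one, with 3.32 over input and 3.10 over IgG.

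Noncoding exon peaks made up 0.901% and 0.908% of the peaks over input in MOLM13 cells and 0.807% and 0.878% in THP1 cells. Their median log2 fold over input was 4.14 and 4.21 in MOLM13 cells and 4.33 and 4.01 in THP1 cells, below that of all other peaks of the same tables, which was 4.38 and 4.34 in MOLM13 cells and 4.51 and 4.47 in THP1 cells. A log2 fold of 6 or more was reached by 10% and 7.63% of noncoding exon peaks in MOLM13, against 16.1% and 14.2% of the other peaks, and by 14.7% and 15.1% in THP1, against 17.3% and 17.9%. The other peaks were mostly in distal introns, of which 16.9 to 20.8% reached that fold. Peaks in 3' UTRs reached it at 7.72% and 8.28% in MOLM13 cells and 8.80% and 8.08% in THP1 cells, and their median was 3.97 and 4.04 in MOLM13 cells and 4.05 and 4.02 in THP1 cells. Noncoding exon peaks thus had a smaller share at high folds than the other peaks together, but not than 3' UTR peaks in 3 of the 4 immunoprecipitates. No test was made between classes of peaks, since the deposited tables hold 1 fold per immunoprecipitate and no counts. The sources used here do not give the read depth behind the folds. These folds and p-values per peak are the authors' own.

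**Figure D1:**
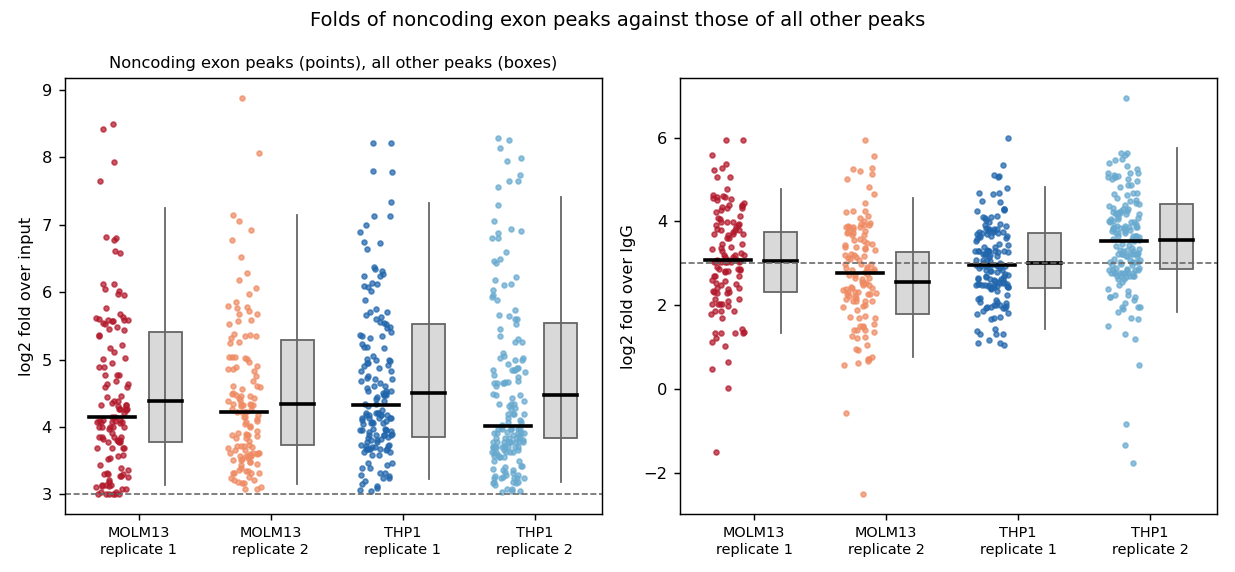
Log2 fold over input (left) and over IgG (right) in each immunoprecipitate. Points are single noncoding exon peaks and the bar through them their median; boxes are the quartiles and median of all other peaks, with lines from the 5th to the 95th percentile; the dashed line is the threshold of 3. The noncoding exon medians lie below the box medians over input (4.14 against 4.38 in MOLM13 replicate 1) and at about the same height over IgG (3.07 against 3.04).

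The share of noncoding exon peaks enriched over IgG was near that of all peaks. IgG values came from the row with identical coordinates in the cluster list of the same immunoprecipitate, which existed for all but 7 and 7 of these peaks in MOLM13 cells and 4 and 6 in THP1 cells. Both IgG thresholds were passed by 49.6% and 35.5% of noncoding exon peaks in MOLM13 and by 40.8% and 58.8% in THP1. Of all peaks over input, 45% and 28.1% passed in MOLM13 cells and 43.2% and 59.1% in THP1 cells, and each of these 4 background values lay inside the 95% Wilson interval of the corresponding noncoding exon share (40.9 to 58.3%, 27.6 to 44.2%, 33.3 to 48.7% and 51.0 to 66.1%). Such intervals cover counting error only and take adjoining pieces of a site as separate peaks. The median log2 fold over IgG was 3.07 and 2.77 in MOLM13 cells and 2.96 and 3.54 in THP1 cells, beside 3.04 and 2.54 for all other MOLM13 peaks and 3.0 and 3.55 for all other THP1 peaks. A peak's fold over IgG exceeded its fold over input at 19.5% and 8.06% of noncoding exon peaks in MOLM13 cells and 9.21% and 15.6% in THP1 cells, beside 12.5% and 5.4% of other peaks in MOLM13 cells and 4.98% and 8.12% in THP1 cells. Among 3' UTR peaks the share was higher still, 29.7% and 15.9% in MOLM13 cells and 18.1% and 23.6% in THP1 cells.

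Folds over the 2 controls differed by repeated steps. The difference between a peak's fold over input and its fold over IgG took a small set of repeated values, and the most common one was 0.98 in MOLM13 replicate 1, 1.35 in MOLM13 replicate 2, 1.25 in THP1 replicate 1 and 1.00 in THP1 replicate 2. Exactly that value, within 0.001, was found at 22.8% and 23.4% of noncoding exon peaks in MOLM13 and at 34.2% and 33.1% in THP1. Together with the values that lie a factor of 2 or 3 above or below it, it covered 57.7% and 60.5% of noncoding exon peaks in MOLM13 cells and 67.1% and 68.1% in THP1 cells, close to the 57.7% and 58.0% of other MOLM13 peaks and below the 69.6% and 76.6% of other THP1 peaks. Ratios of small whole numbers give steps of this kind, but the tables hold no read counts, so the number of control reads was not tested. Where the difference has its most common value, a peak passes over IgG only if its log2 fold over input is at least 3.98, 4.35, 4.25 or 4.00 in the 4 immunoprecipitates, in the order above. Of the 28 and 29 such noncoding exon peaks in MOLM13, 10 and 6 passed, and of the 52 and 53 in THP1, 11 and 19.

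Recurrence between duplicates was lower for noncoding exons than for the tables as a whole. An overlap by 1 base or more, on 1 strand, with a peak of any kind in the other replicate was found for 67.7% and 73.3% of noncoding exon peaks in MOLM13 and for 74.4% and 74.7% in THP1. The share over all peaks was 78.4% and 83.9% in MOLM13 cells and 81.8% and 85.1% in THP1 cells, above the upper end of the Wilson interval of the noncoding exon share in each of the 4 (75.1%, 80.1%, 80.6% and 80.7%). Peaks in 3' UTRs recurred at shares inside those intervals, 74.7% and 75.2% in MOLM13 cells and 76.3% and 77.7% in THP1 cells, while peaks in distal introns recurred at 80.5 to 88.5%. The differences were not tested. These intervals cover counting error only and take adjoining pieces of a site as separate peaks. The shares of the duplicates of a line rest on the same overlaps and are not independent. At regions with a peak in both duplicates the log2 folds over input correlated across regions with r = 0.75 in MOLM13 (91 regions) and r = 0.77 in THP1 (114 regions), and the differences between duplicates had an SD of 0.88 and 0.90. The regions of a library share its reads and its control, so these coefficients are descriptions.

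Part of this recurrence crossed annotation labels. Of 424 noncoding exon peaks overlapped in the other replicate, 66 met only peaks of another label there, most often 3' UTR (22 peaks), introns of noncoding transcripts (16) and distal introns (16), with coding sequence at 7. PRC1 is one of the sites whose label differed between replicates.

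Peaks in both duplicates that were also enriched over IgG in both came to 33 of 83 in MOLM13, which is 39.8%, against 26.4% of reproducible peaks of other features. In THP1 they came to 48 of 112, or 42.9%, against 44.9%. Only peaks with an IgG row in both replicates were counted.

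The highest noncoding exon site of MOLM13 lay on AC025171.1, a transcript known only by its clone name, at chr5:43014605-43014710. Its log2 fold over input was 8.50 and 8.88 in MOLM13 cells and 6.73 and 7.95 in THP1 cells, so both MOLM13 values exceeded both THP1 values. Over IgG it had 5.06 and 5.20 in MOLM13 cells and 4.48 and 6.95 in THP1 cells, and it led the 12 genes whose noncoding exon peaks passed over IgG in all 4 immunoprecipitates. OIP5-AS1, a cytoplasmic long noncoding RNA that binds a microRNA and the AU-rich binder HuR, had 7.83 and 7.05 over input in MOLM13 cells and 7.0 and 8.22 in THP1 cells at chr15:41299082-41299216. Over IgG the same peaks had 4.08 and 3.72 in MOLM13 cells and 3.64 and 4.90 in THP1 cells, with the lines overlapping on both scales. In MOLM13 replicate 1 and THP1 replicate 2 the highest peak at this site was labelled intronic.

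**Figure D2:**
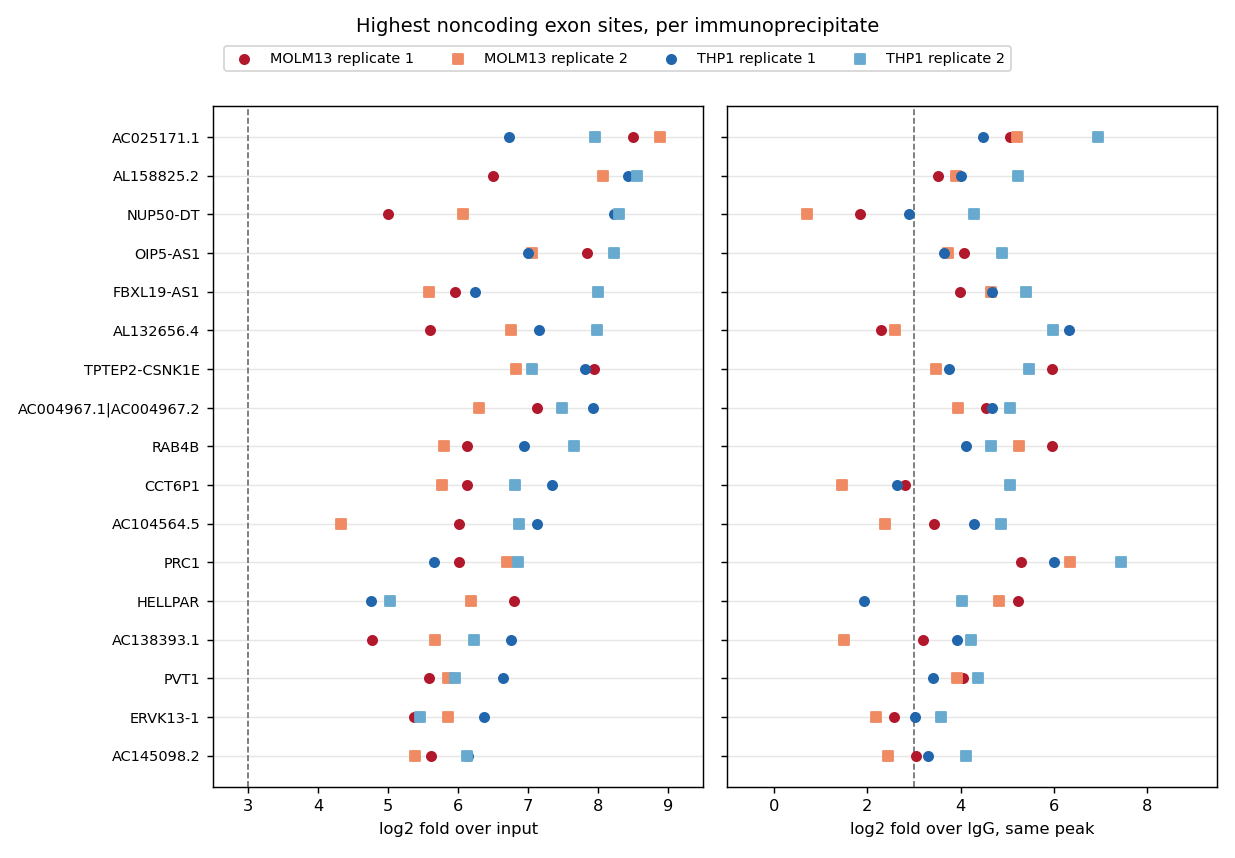
Log2 fold over input (left) and over IgG at the same peak (right) for the highest site of 17 genes that reached the top 10 of MOLM13, of THP1 or of both lines. Each point is the highest peak of the site in 1 immunoprecipitate, whatever its label, with circles for replicate 1 and squares for replicate 2. The dashed line is the threshold of 3. Over input all points exceed 4, while over IgG NUP50-DT lies below 3 in both MOLM13 replicates (1.85 and 0.71).

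Other long noncoding RNAs with high sites in both lines were FBXL19-AS1, PVT1 and ERVK13-1. FBXL19-AS1, antisense to an F-box gene, had 5.96 and 5.59 in MOLM13 cells and 6.24 and 7.99 in THP1 cells over input, and 3.98 and 4.65 in MOLM13 cells and 4.68 and 5.41 in THP1 cells over IgG. PVT1, the neighbour of MYC that is often amplified with it, had 5.58 and 5.85 in MOLM13 cells and 6.64 and 5.96 in THP1 cells over input at chr8:127998290-127998407. Its folds over IgG passed in all 4 immunoprecipitates, with 4.06 and 3.91 in MOLM13 cells and 3.4 and 4.37 in THP1 cells. The highest PVT1 peak of MOLM13 replicate 2 had another label, and the noncoding exon peak there had 5.77 over input and 3.72 over IgG. ERVK13-1, a transcript derived from an endogenous retrovirus, had 5.36 and 5.86 in MOLM13 cells and 6.37 and 5.46 in THP1 cells over input, but 2.57 and 2.18 over IgG in MOLM13 cells and 3.01 and 3.58 in THP1 cells, so these MOLM13 peaks missed the IgG threshold. An adjoining peak of the same site in MOLM13 replicate 1, 11 bases long, passed it with 3.03.

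Of the 12 genes enriched over IgG in all 4, FGD5-AS1, SNHG8, CENPBD2P, AC114491.1 and TSPOAP1-AS1 also ranked high by the lowest of their IgG folds. FGD5-AS1 had 4.36 and 4.69 over input in MOLM13 cells and 5.53 and 5.60 in THP1 cells, and these peaks spanned only 3.70 to 4.01 over IgG. Adjoining pieces of the site had 3.54 over IgG in THP1 replicate 1 and 4.07 in THP1 replicate 2. A separate site in THP1 replicate 1, chr3:14943733-14943786, had 4.05 over input and missed the IgG threshold with 1.81. At SNHG8 the folds over IgG at the site chr4:118279745-118279805 were 3.70 and 3.88 in MOLM13 cells and 3.83 and 3.78 in THP1 cells, about as high as those over input, which were 3.32 and 4.01 in MOLM13 cells and 4.34 and 3.56 in THP1 cells. CENPBD2P, a pseudogene of a DNA-binding domain gene, had 4.4 and 3.56 over IgG in MOLM13 cells and 3.95 and 4.26 in THP1 cells. AC114491.1, whose site lies over the RefSeq pseudogene COXFA4P1, had 6.61 and 4.60 over input in MOLM13 cells and 5.36 and 6.6 in THP1 cells. TSPOAP1-AS1 had 3.68 and 3.36 over input in MOLM13 cells and 4.71 and 3.92 in THP1 cells. Over IgG the same peaks had 2.70 and 4.0 in MOLM13 cells and 3.46 and 4.51 in THP1 cells. The 2.70 of MOLM13 replicate 1 missed the threshold, but the highest cluster of the site there passed with 4.61. In THP1 replicate 1 the highest cluster had 3.81.

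Hosts of small nucleolar RNAs, whose introns release guide RNAs for ribosomal RNA modification, formed the longest fixed list of noncoding RNAs. Of 33 listed hosts known to RefSeq, 9 had a peak of any kind and 8, or 24.2%, a noncoding exon peak, of which 5 did so in all 4 immunoprecipitates. Of all 18330 RefSeq long noncoding RNA genes, whether expressed or not, 0.289% had one. The 47 peaks of the 8 hosts had a median log2 fold over input of 3.67. Over IgG 6 of 10 and 5 of 11 passed in MOLM13 and 5 of 14 and 7 of 12 in THP1, beside the 45%, 28.1%, 43.2% and 59.1% of all peaks. The highest was SNHG14, the long imprinted transcript of the Prader-Willi region, at chr15:25042729-25042846, with 5.58 and 6.77 over input in MOLM13 cells and 4.88 and 4.26 in THP1 cells. Over IgG it had 4.27 and 5.0 in MOLM13 cells and 2.63 and 2.67 in THP1 cells, so MOLM13 was the higher line on both scales. SNHG16 ran the other way, with 4.11 and 4.11 over input in MOLM13 cells and 5.55 and 4.94 in THP1 cells, and over IgG 2.32 and 1.06 in MOLM13 cells and 3.65 and 4.4 in THP1 cells. At SNHG17 each line had a reproducible site of its own, chr20:38430830-38430980 in MOLM13 (4.10 and 3.31) and chr20:38429080-38429243 in THP1 (4.48 and 4.19). The second was also a peak in MOLM13 replicate 2, with 3.44. SNHG1, SNHG5, SNHG7 and EPB41L4A-AS1 complete the list.

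Of 11 well-known abundant or imprinted long noncoding RNAs, 4 had a peak of any kind and 3, or 27.3%, a noncoding exon peak. Beside OIP5-AS1 these were NORAD, which sequesters PUMILIO proteins, and TUG1, which RefSeq now classes as protein-coding. NORAD had 4.09 and 5.04 over input in MOLM13 cells and 3.97 and 4.66 in THP1 cells at chr20:36048541-36048623, and over IgG 3.91 and 5.27 in MOLM13 cells and 2.14 and 3.33 in THP1 cells. The 2.14 belongs to a piece of 15 bases, and the adjoining peak of 53 bases in THP1 replicate 1 had 3.82 over input and 3.16 over IgG, so NORAD passed in all 4 immunoprecipitates. TUG1 had peaks over input in MOLM13 only, with 3.31 and 4.18. Measured against IgG, the peak of MOLM13 replicate 1 stood at 3.91, and that of MOLM13 replicate 2 missed the threshold at 1.24. Clusters at the same site in THP1 had 2.46 and 2.02 over IgG, between the MOLM13 values. Of 14 genes of the leukaemia and myeloid list, 3, or 21.4%, had a noncoding exon peak. Their 11 peaks were 6 of LINC00467, several of them adjoining pieces of 1 site, 4 of PVT1 and 1 of DLEU1. The 10 that passed over IgG all came from LINC00467 and PVT1, and the median log2 fold over input of 5.58 is that of these few sites. LINC00467 had a pair of THP1 sites, the higher at chr1:211434278-211434353 with 6.08 and 3.70 over input, a gap between duplicates of over 2, and 3.84 and 5.02 over IgG. DLEU1 had a single peak of 3.61 in MOLM13 replicate 2.

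Of 9 HOX-linked transcripts listed, HOXA11-AS alone had peaks, both in THP1, with 3.88 and 3.70 over input and 2.63 over IgG in replicate 1, which missed the threshold. No microRNA host and no mitochondrial ribosomal RNA had a noncoding exon peak, and of small structural RNAs only RN7SL219P, a pseudogene of the signal recognition particle RNA, did so, with 3.63 over input and 1.38 over IgG in THP1 replicate 1. An intronic peak covered the same site in THP1 replicate 2. Names with LINC made up 5 genes, the highest being LINC01694. Antisense names made up 27 genes with 81 peaks. Over IgG 14 of 21 and 10 of 17 of these passed in MOLM13 and 12 of 18 and 12 of 25 in THP1, where 45% and 28.1% of all MOLM13 peaks and 43.2% and 59.1% of all THP1 peaks did so.

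Divergent transcripts, which start beside a gene's promoter and run away from it, gave 4 genes with 24 peaks, of which 20 belonged to NUP50-DT. The 5 that passed over IgG were all pieces of NUP50-DT in THP1 replicate 2, where 59.1% of all peaks passed. NUP50-DT had the highest site of THP1 among those labelled noncoding exon in both replicates. At chr22:45133104-45133205 it had 5.01 and 6.07 over input in MOLM13 cells and 8.22 and 8.30 in THP1 cells, the largest line difference among regions with peaks in all 4 immunoprecipitates, with a mean log2 fold of 5.54 ± 0.75 in MOLM13 and 8.26 ± 0.05 in THP1 (mean ± SD of 2 replicates). Over IgG the same peaks had 1.85 and 0.71 in MOLM13 cells and 2.89 and 4.29 in THP1 cells, so only THP1 replicate 2 passed. The site is thus strong against input and, in 3 of 4 immunoprecipitates, below the threshold against IgG. TMEM161B-DT had 4.95 and 3.87 over input in THP1 and 2.12 and 2.87 over IgG. FLVCR1-DT and NCK1-DT each had 1 peak, of 3.70 and 3.32, in THP1.

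Clone names, which the authors' annotation gives to transcripts without an approved symbol, made up 62 of the 211 names, and 65 names in all matched no RefSeq symbol. Some of their sites lie inside a known gene on the same strand, where reads from both cannot be told apart. AL158825.2 at chr9:75015721-75015766 lies within CARNMT1, a carnosine methyltransferase gene, and had 6.50 and 8.06 over input in MOLM13 cells and 8.42 and 8.56 in THP1 cells. These highest peaks were labelled a noncoding exon in MOLM13 replicate 2 and an intron in the other 3. A second peak of the site in MOLM13 replicate 1, with 5.97 over input and 3.4 over IgG, was labelled a noncoding exon too. AC104564.5 lies within SSH2, a cofilin phosphatase gene, and had 6.01 and 4.33 in MOLM13 cells and 7.12 and 6.87 in THP1 cells. The 6.01 comes from a peak of another label. The name AC004967.1|AC004967.2 covers a site over the pseudogene CCZ1P1 with 7.12 and 6.29 in MOLM13 cells and 7.92 and 7.48 in THP1 cells. Its folds over IgG were 4.55 and 3.94 in MOLM13 cells and 4.68 and 5.06 in THP1 cells. Of these highest peaks only that of MOLM13 replicate 2 was labelled a noncoding exon. The noncoding exon peaks of THP1 had 7.78 and 6.93 over input. AL132656.4 had 5.60 and 6.75 over input in MOLM13 cells and 7.16 and 7.98 in THP1 cells. Over IgG the lines stood far apart, with 2.30 and 2.59 in MOLM13 cells and 6.33 and 5.97 in THP1 cells. Only its peak of MOLM13 replicate 1 was labelled a noncoding exon, so both THP1 values come from peaks of another label. AC138393.1, over SEPTIN7P13, and AC145098.2 also reached a top 10, the first with 3.20 and 1.51 over IgG in MOLM13 cells and 3.92 and 4.22 in THP1 cells, the second with 3.04 and 2.45 in MOLM13 cells and 3.30 and 4.12 in THP1 cells.

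HELLPAR, a very long noncoding RNA on chromosome 12, had the most separate regions of any gene, 5. Its highest, chr12:102249158-102249291, had 6.80 and 6.18 over input in MOLM13 cells and 4.76 and 5.02 in THP1 cells. A second, chr12:102243909-102244056, had 6.77 and 4.59 in MOLM13 and 3.68 in THP1 replicate 1, with no peak in THP1 replicate 2. The third, chr12:102228643-102228783, had 5.53 and 4.91 in MOLM13 cells and 4.68 and 3.24 in THP1 cells. MOLM13 was the higher line at each.

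Genes that RefSeq classes as protein-coding made up 59 of the names. Their peaks sat near the 3' end. The middle of the region lay at a median 92.0% of the gene's length, and 70.5% of 61 placed regions lay in the last 20% of the gene, as did 90.0% of 3' UTR peaks and 30.3% of all other peaks of protein-coding genes. Regions of long noncoding RNAs were spread along the gene, with a median of 62.5% and 27.9% in the last 20%, against 9.39% of other peaks in such genes. Pseudogene regions had a median of 42.5%, and 12.1% lay in the last 20%. These shares were not tested.

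**Figure D3:**
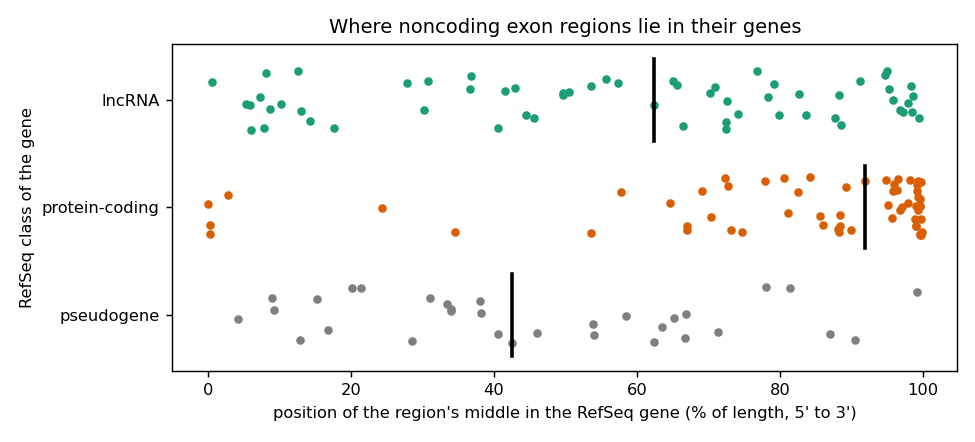
Position of each noncoding exon region in its RefSeq gene, from 0% at the 5' end to 100% at the 3' end, by class of the gene. Points are regions, spread vertically for clarity, and bars the medians over all placed regions (62.5% for lncRNA, 92.0% for protein-coding, 42.5% for pseudogene). The protein-coding points crowd at the right end.

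TPTEP2-CSNK1E, a read-through transcript that includes casein kinase 1 epsilon, had the highest reproducible site of this class in both lines, with 7.94 and 6.83 over input in MOLM13 cells and 7.80 and 7.06 in THP1 cells at chr22:38361497-38361574. Over IgG it had 5.95 and 3.47 in MOLM13 cells and 3.75 and 5.47 in THP1 cells. Its peak in MOLM13 replicate 2 had another label. RAB4B, a GTPase of endosomal recycling, had 6.12 and 5.79 in MOLM13 cells and 6.94 and 7.65 in THP1 cells over input at chr19:40796807-40796937. Over IgG its order was the reverse, 5.95 and 5.24 in MOLM13 cells and 4.11 and 4.65 in THP1 cells. The RAB4B peak of THP1 replicate 1 had another label. CFLAR, an inhibitor of caspase-8 activation, had 1 noncoding exon peak, 6.04 in THP1 replicate 2, at a site that the other 3 immunoprecipitates label 3' UTR with 3.30 to 4.44.

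Pseudogenes, copies of genes that usually make no protein, gave 33 further names with 87 peaks. Enriched over IgG were 4 of 14 and 8 of 22 in MOLM13 and 10 of 29 and 15 of 22 in THP1, beside the 45%, 28.1%, 43.2% and 59.1% of all peaks. Reads from a near-identical parent can be assigned to the copy, and the sources used here do not say how reads that map to several places were treated. Of the pseudogenes whose name gives a RefSeq parent, the parent had a peak over input of its own in 5 of 8 and 9 of 16 in MOLM13 and in 9 of 16 and 7 of 12 in THP1. Of all protein-coding genes, 22.4% and 21.5% had one in MOLM13 cells and 24.99% and 24.4% in THP1 cells. CCT6P1, a copy of a chaperonin subunit gene, had 6.12 and 5.78 over input in MOLM13 cells and 7.33 and 6.81 in THP1 cells, and over IgG 2.81 and 1.47 in MOLM13 cells and 2.63 and 5.07 in THP1 cells. The 2.81 belongs to a piece of 14 bases, and the adjoining peak of 59 bases in MOLM13 replicate 1 passed over IgG with 3.16. PRORSD1P had 5.11 and 4.84 in MOLM13 cells and 5.67 and 5.93 in THP1 cells. RAD23BP1 had 3.77 and 4.83 in MOLM13 cells and 5.71 and 6.16 in THP1 cells. RRN3P3 had 3.68 and 5.04 in MOLM13 cells and 4.48 and 4.87 in THP1 cells. The label was noncoding exon in MOLM13 replicate 1 and THP1 replicate 2 for PRORSD1P. For RAD23BP1 and RRN3P3 it was so in MOLM13 replicate 2 and THP1 replicate 1. The remaining values come from peaks of another label.

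The lowest folds over IgG of reproducible MOLM13 peaks belonged to MTND2P28, a nuclear copy of the mitochondrial gene for complex I subunit ND2. At chr1:630260-630350 it had 4.64 and 3.48 over input in MOLM13 cells and 5.23 and 5.09 in THP1 cells, but 0.65 and −0.57 over IgG in MOLM13 cells and 4.28 and 4.26 in THP1 cells. In MOLM13 the IgG libraries thus recovered about as much of this site as the immunoprecipitates, and in THP1 far less. The mitochondrial MT-ND2 itself had peaks up to 4.19 and 4.23 over input in MOLM13 cells and 5.29 and 5.30 in THP1 cells, and over IgG those had 2.93 and 2.99 in MOLM13 cells and 3.27 and 4.28 in THP1 cells. ZNF674-AS1 was also low in MOLM13 replicate 2, with 3.07 and 0.92 over IgG in MOLM13 cells and 3.05 and 4.88 in THP1 cells. In THP1 the lowest were AC008124.1, SNHG17, AC011753.2 and RN7SL219P, which had at least 1 replicate below 1.5 over IgG. The pieces of AC008124.1 in THP1 replicate 2 nevertheless passed, with 3.55 and 3.90. At SNHG17 the low value, 1.30, was that of a piece of 27 bases in THP1 replicate 1. Its other THP1 pieces had 1.96 to 3.18, without passing.

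Across the 4 immunoprecipitates 59 of the 250 regions had a peak over input of any label in all, 40 in 3, 56 in 2 and 95 in only 1. A peak labelled noncoding exon was found in all 4 at 37 regions. Both MOLM13 replicates and neither THP1 replicate had a peak at 17, and both THP1 replicates and neither MOLM13 replicate at 30. THP1 also had more peaks over input of any kind, 19325 and 18901 against 14432 and 14425 in MOLM13. The corresponding shares over all features were not computed. A cluster was found in all 4 lists at 212 regions, among them all 59 with a peak in all 4. It was found at 38 of the 40 with a peak in 3, 46 of the 56 in 2 and 69 of the 95 in 1. At most regions that lacked a peak somewhere, reads were thus still present in every list. Of all clusters of the lists, 5.11% and 2.49% passed over IgG in MOLM13 and 5.74% and 8.36% in THP1. A cluster did so in all 4 at 23 regions and in none at 123, and 84 of those 123 were regions with a single peak. Among the 95 regions with a single peak, 11 had a cluster enriched over IgG anywhere, against 53 of the 59 found in all 4. Folds over both controls use the same immunoprecipitate, and regions with more peaks have more chances to pass. The contrast is thus partly built in. Of the 209 genes outside chromosome Y, 36 had noncoding exon peaks in all 4 and 96 in only 1.

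**Figure D4:**
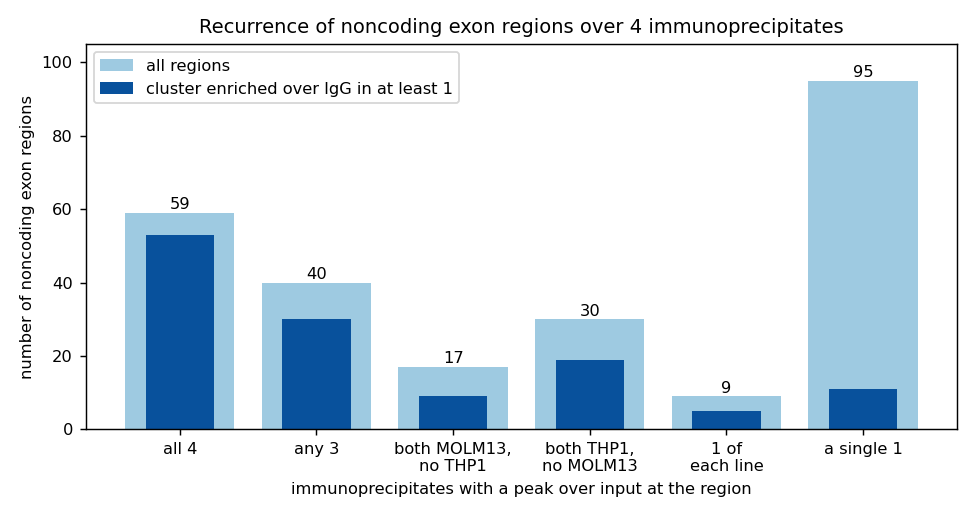
Number of noncoding exon regions by the immunoprecipitates in which they had a peak over input of any label. Wide bars are all regions and narrow bars those with a cluster enriched over IgG in at least 1 immunoprecipitate. The largest group has a peak in a single immunoprecipitate (95 regions), and few of these are enriched over IgG.

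Between lines, 71.6% of 88 reproducible noncoding exon peaks of MOLM13 overlapped a reproducible peak of THP1, and 51.7% of 116 of THP1 overlapped one of MOLM13. For all other peaks the shares were 82.6% in MOLM13 and 64.5% in THP1. At the 59 regions with peaks of any label in all 4, the mean log2 fold over input was higher in MOLM13 at 19 and higher in THP1 at 40. The mean difference was −0.41 (MOLM13 minus THP1), with an SD of 0.93 across regions. At 37 regions the label was noncoding exon in all 4. Both MOLM13 values exceeded both THP1 values at 11 of the 59, or 18.6%, where 12.4% of regions of any feature did so. Both THP1 values exceeded both MOLM13 values at 26, or 44.1%, where 36.4% of all regions did so. Each table was made for 1 immunoprecipitate, with the scaling not stated, so a comparison across lines carries any difference in scaling. Across these regions the means of the lines correlated with r = 0.73, a description over sites that share libraries.

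**Figure D5:**
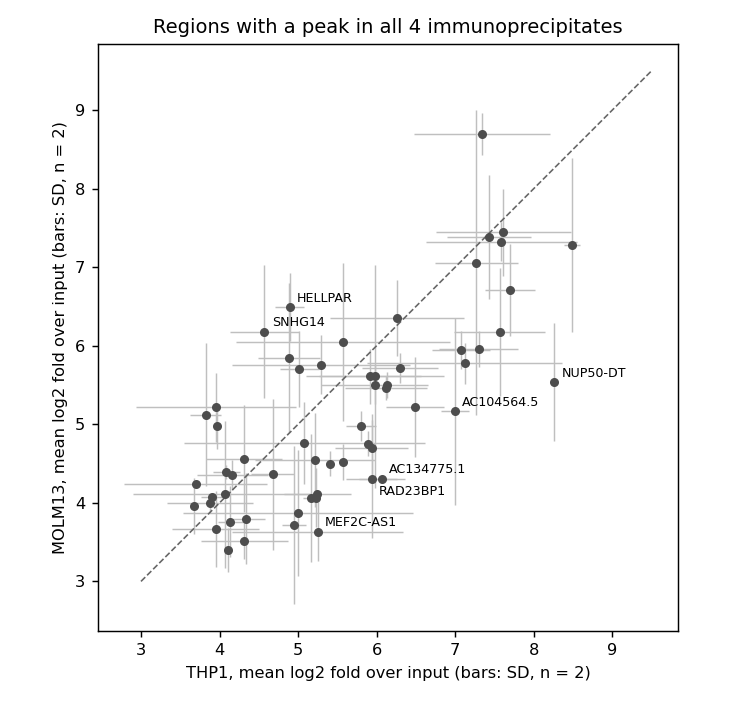
Mean log2 fold over input in MOLM13 (vertical) against THP1 (horizontal) at the 59 regions with a peak of any label in all 4 immunoprecipitates. Bars are SDs over 2 replicates each. The dashed line marks equal folds. Names are given at the widest gaps. NUP50-DT lies farthest below the line and HELLPAR and SNHG14 farthest above it.

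On the MOLM13 side stood HELLPAR, SNHG14 and AC025171.1, with EIF4A1 and NAPA among coding genes. EIF4A1, a translation initiation helicase that hosts small nucleolar RNAs, had 5.18 and 6.52 over input in MOLM13 cells and 5.16 and 4.61 in THP1 cells at chr17:7578863-7578997, without an IgG row of identical coordinates. On the THP1 side, beside NUP50-DT, AC104564.5 had a mean of 5.17 ± 1.19 in MOLM13 and 7.0 ± 0.18 in THP1. RAD23BP1 had 4.30 ± 0.75 in MOLM13 and 5.93 ± 0.32 in THP1 (mean ± SD of 2 replicates).

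Genes with a reproducible noncoding exon peak in MOLM13 and no peak of any kind over input in THP1 numbered 9. Reproducible noncoding exon peaks bore 63 gene names in MOLM13. The corresponding share over all features was not computed, and THP1 had more peaks of any kind. BAALC-AS1, antisense to a gene expressed in acute leukaemia, had 5.49 and 5.04 over input, with 4.51 and 3.69 over IgG, in MOLM13, and the highest cluster at the site had 1.85 and 2.46 over IgG in THP1. PRKAG2-AS1 had 5.54 and 4.48 over input, with 4.56 and 4.13 over IgG, in MOLM13, against 1.26 and 1.18 over IgG in THP1. TSC22D1-AS1 had 4.59 and 4.04 over input in MOLM13. PWAR5, which RefSeq places inside the SNHG14 locus, had 4 regions between 3.13 and 4.77 in MOLM13, a part of them labelled intronic, and another region was named jointly for it and SNORD108 (4.37 and 4.86). TTC4 had 3.68 and 3.61, the second at a peak of another label. Its clusters over IgG overlapped between lines, with 2.70 and 2.26 in MOLM13 cells and 1.85 and 2.55 in THP1 cells.

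The corresponding THP1 genes numbered 26, where reproducible noncoding exon peaks bore 83 gene names. AL023693.1 had 5.63 and 6.11 over input, with 3.39 and 5.10 over IgG, in THP1, and clusters at the site had 1.70 and 0.99 over IgG in MOLM13. LINC01694 had 5.55 and 5.67 over input, with 4.31 and 3.66 over IgG, in THP1, against 0.28 and −0.14 over IgG in MOLM13. GSDMB, a member of the pore-forming gasdermins, had 5.47 and 6.17 over input, with 3.23 and 4.17 over IgG, in THP1, against 0.51 and −1.18 over IgG in MOLM13. AC130448.2, within the protein kinase C gene PRKCB, had 5.32 and 5.36 over input in THP1. DLEU7-AS1 had 4.83 and 5.26, and AC011726.2 had 4.72 and 5.09 with folds over IgG of 5.05 and 5.09. The AC011726.2 peak of THP1 replicate 2 had another label. Folds over controls do not say whether a transcript is present in the other line: fewer reads of an RNA and weaker binding cannot be told apart from them.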

How the data were processed

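The authors deposited, per immunoprecipitate, a table of peaks over input and a list of all clusters over IgG, each with a log2 fold and a −log10 p. The −log10 p of the deposited tables is capped at 400. Per the submitters' processing notes, STAR 2.5.0c, cutadapt 1.14, edgeR and Picard 2.6.0 were used, and hg38, hg19 and GRCh37 are named, with no role given. The coordinates used here carry hg38 names. The sources used here do not give the peak caller, test, scaling or read depth, and 0 columns lacked a sample.

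Rows were tied to IgG values of the same immunoprecipitate by identical coordinates. Recurrence needed 1 shared base on the same strand. A region's value is its highest peak over input, whatever the label of that peak. Regions used pandas 2.3.3 on Python 3.11.15, and names were matched to RefSeq (141 symbols and 5 older ones of 211). Overlap code was tested on simulated data. The 2 names on chromosome Y are not printed; they are in the counts of peaks and regions and left out of those by gene, list or name class.

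The members and lists were chosen with earlier results of these data known. Named genes were the 10 with the highest reproducible noncoding exon peak per line and over both (by the lower replicate), up to 4 per list or name class, up to 8 enriched over IgG in all 4, the 4 lowest over IgG per line and up to 6 of 1 line only. POLR2A, EIF4A1, NAPA, MT-ND2, AC134775.1, MEF2C-AS1, the snoRNA hosts beyond 4 and the genes of the section on a closer look were named after their values were seen. The lists were snoRNA hosts, microRNA hosts, abundant or imprinted lncRNAs, HOX-linked and leukaemia or myeloid lncRNAs, small structural RNAs and mitochondrial rRNAs. One gene that the rule names is not reported here. No test was made.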

Additional observations from a re-analysis of the deposited data

Results flagged for a closer look

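At 5 noncoding exon regions the highest cluster had a log2 fold over IgG on opposite sides of 0 in the 2 lines, in both replicates of each. The lines could be compared on this fold at 211 regions. The 5 were picked by the same values that are printed here, so their differences are selected. The corresponding share among all clusters was not computed, and none of these differences was tested. Each of the 5 regions had a noncoding exon peak over input in 1 immunoprecipitate, none had a cluster enriched over IgG, and some values lay very near 0. At SNHG14, chr15:25119769-25119849, the folds were 2.79 and 2.99 in MOLM13 cells and −0.74 and −0.04 in THP1 cells, a difference of means of 3.27. At an upstream site of RAB4B, chr19:40778276-40778343, they were 1.51 and 0.62 in MOLM13 cells and −1.51 and −1.99 in THP1 cells, a difference of 2.81. ZNF808, a zinc finger gene, ran the other way, with −0.30 and −0.14 in MOLM13 cells and 1.59 and 2.90 in THP1 cells, a difference of −2.46. AC007038.1 had −0.04 and −0.01 in MOLM13 cells and 3.07 and 3.23 in THP1 cells, a difference of −3.18. IFT80, a gene of ciliary transport, had −0.98 and −0.01 in MOLM13 cells and 2.38 and 2.84 in THP1 cells, a difference of −3.10.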

How the results depend on the processing

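Of 34 alternatives to 12 results that kept both replicates, 22 stayed within the spread of replicates. For counts the limit was 1.5 times, and for shares between lines the Wilson interval. A threshold of 4 for the log2 fold over input left a mean of 78 noncoding exon peaks in MOLM13 and 92 in THP1, where 130.5 and 161 had passed 3. It gave 69.4% shared by THP1 replicates, where 76.8% and 83.0% of other THP1 peaks were shared. Counting only overlaps with another noncoding exon peak lowered the share reproduced to 59.8% in MOLM13 and 62.8% in THP1. In THP1 it was 74.2% when 50% of the shorter peak had to be shared and 78.9% over genes noncoding in RefSeq, beside 74.5%. With an IgG threshold of 2, 56.3% of MOLM13 noncoding exon peaks passed, and at 3, 54.5% of the reproducible ones, beside 42.5%. At 2, the replicates gave 63.4% and 49.2%, where 60.9% and 44.6% of other MOLM13 peaks passed. Reproducible peaks gave 69.0% and 40.0%, where 53.9% and 31.5% of other reproducible peaks passed. Among reproducible peaks the median log2 fold over input was 4.49 in MOLM13 and 4.55 in THP1, and over IgG 3.24 in MOLM13. The causes were not tested. Taking either replicate alone gave 35.5 to 49.6% over IgG in MOLM13 and 40.8 to 58.8% in THP1. For means of 2 replicates such values lie within their SD by construction and say nothing about stability. No paired analysis was possible because the results come from no test. The AU-rich motif share and its 3 alternatives were not run, since no genome was given. Read depth is unknown, so no interval for a single fold can be given.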
